A study of Mus musculus with 5 samples.

Results

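The genes described here are 10 genes of salt, magnesium and calcium transport in the distal nephron of the mouse kidney: Slc12a3, Slc12a1, Kcnj1, Trpm6, Egf, Calb1, Pvalb, Wnk1, Wnk4 and Klhl3. They were matched by symbol and make up 10 of the 27998 genes counted. Their UMIs (unique molecular identifiers, 1 per captured RNA molecule) were read in kidney cells with no UMI of the leukocyte gene Ptprc and with at least 2 UMIs of Slc12a3 or of Slc12a1. Cells with more Slc12a3 than Slc12a1 were called distal convoluted, and cells with more Slc12a1 were called thick limb. Of the 21708 cells kept, 15869 had no Ptprc UMI and 950 of these were chosen, 851 of them distal convoluted and 99 thick limb.

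The cells came from 5 C57BL/6j mice, all given pristane, a hydrocarbon oil that induces lupus-like disease. The labels put 2 mice in a saline group and 3 in a group given fecal microbiota transplantation (FMT) from MRL/MpJ mice, and name no untreated mouse, so that pristane was common to both groups. The labels do not give age, sex or time after treatment. The labels give kidney as the tissue and tubular epithelial cells and B cells as the cells collected, and 5839 of the kept cells had a Ptprc UMI. Nothing in the labels says more on how the mice were housed or processed, so p-values measure the spread between these 5 libraries.

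The thick ascending limb takes up sodium chloride through NKCC2, the product of Slc12a1, and recycles potassium through the channel ROMK, the product of Kcnj1. The distal convoluted tubule that follows it takes up sodium chloride through NCC, the thiazide-sensitive cotransporter encoded by Slc12a3, and takes up magnesium through channels that contain TRPM6. WNK kinases switch NCC on through the kinase SPAK, and Klhl3, an adaptor of a cullin ubiquitin ligase, marks WNK kinases for degradation. Parvalbumin (Pvalb) and calbindin (Calb1) bind calcium in the cytosol, parvalbumin mainly early and calbindin mainly late along the distal convoluted tubule. The Egf product is a precursor of epidermal growth factor, which is known to favour magnesium uptake through TRPM6.

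The libraries held 15333445 to 45309178 UMIs each and 137741759 in all. The 851 distal convoluted cells held 658910 to 2149146 UMIs per mouse, and the 99 thick limb cells 8938 to 137987. Distal convoluted cells numbered 134 and 271 in the saline mice and 216, 123 and 107 in the FMT mice. Thick limb cells numbered only 7 and 29 in the saline mice and 30, 6 and 27 in the FMT mice, so that the thick limb values of the first saline mouse and the second FMT mouse rest on few cells. Any pair of libraries shared 3 to 12 cell barcodes. Levels are given as CPM, the UMIs of a gene scaled to a common total of UMIs in the cells summed (counts per 1e6). Counts per gene depend on how well each transcript is captured, so each level was compared between cells and not between genes.

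Slc12a3 lies on chr8:94329201-94366214 of the plus strand and Slc12a1 on chr2:125152505-125230002 of the plus strand (mm10, GENCODE M21). On the same build, Kcnj1 lies on chr9:32372493-32399197 (plus), Trpm6 on chr19:18749983-18892511 (plus), Egf on chr3:129677565-129755316 (minus) and Calb1 on chr4:15881264-15908064 (plus). Pvalb lies on chr15:78191114-78206400 (minus), Wnk1 on chr6:119923969-120038672 (minus), Wnk4 on chr11:101260567-101277409 (plus) and Klhl3 on chr13:58000228-58113592 (minus). Slc12a1, Egf and Wnk4 are overlapped by annotated antisense genes, and the sources used here do not say whether the counting used the strand. Wnk1 is known to make a full-length and a kidney-specific short RNA, which a count per gene cannot tell apart.

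The promoters of the distal convoluted genes Slc12a3, Pvalb and Trpm6 are shown beside that of the thick limb gene Slc12a1, because the first 3 genes were counted almost only in distal convoluted cells. Each sequence holds the 250 bases before the RefSeq start of the gene on its own strand (GRCm38.p6), and capitals mark matches to the motifs searched.
Slc12a3, chr8:94328958-94329207, plus strand: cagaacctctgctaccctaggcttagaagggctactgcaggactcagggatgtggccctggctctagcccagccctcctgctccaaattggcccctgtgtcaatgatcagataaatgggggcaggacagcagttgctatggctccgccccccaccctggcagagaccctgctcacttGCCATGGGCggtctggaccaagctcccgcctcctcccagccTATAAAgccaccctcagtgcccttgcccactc
Pvalb, chr15:78206401-78206650, minus strand: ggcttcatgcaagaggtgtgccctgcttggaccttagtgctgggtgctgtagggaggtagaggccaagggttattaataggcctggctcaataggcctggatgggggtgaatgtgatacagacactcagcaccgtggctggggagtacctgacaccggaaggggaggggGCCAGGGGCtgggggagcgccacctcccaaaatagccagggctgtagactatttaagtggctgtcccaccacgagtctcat
Trpm6, chr19:18749480-18749729, plus strand: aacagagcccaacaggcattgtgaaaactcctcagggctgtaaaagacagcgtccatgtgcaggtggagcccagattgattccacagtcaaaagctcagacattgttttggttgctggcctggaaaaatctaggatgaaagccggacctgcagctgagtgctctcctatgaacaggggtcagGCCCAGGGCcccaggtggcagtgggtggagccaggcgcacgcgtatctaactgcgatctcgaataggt
Slc12a1, chr2:125152350-125152599, plus strand: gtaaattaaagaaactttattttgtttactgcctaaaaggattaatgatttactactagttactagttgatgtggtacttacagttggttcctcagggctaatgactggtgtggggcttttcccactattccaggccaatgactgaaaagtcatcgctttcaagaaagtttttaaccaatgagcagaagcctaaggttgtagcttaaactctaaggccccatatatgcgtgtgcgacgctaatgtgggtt

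Motifs were searched on both strands from 250 bases before to 50 bases after the start: an AP-2 palindrome (GCCNNNGGC), an estrogen-related receptor site (TNAAGGTCA), the steroid receptor palindrome and a TATA box (TATAAA). RefSeq entries were found for 9 of the 10 genes, all but Calb1. The AP-2 letters stood in the promoters of Slc12a3, Trpm6, Pvalb, Wnk1 and Wnk4, and in none of those of Slc12a1, Egf, Klhl3 and Kcnj1. Of 32851 mouse promoters of the same length, 16.6% held them. In Slc12a3 the match began 73 bases before the start and a TATA box 32 bases before it, and 13.6% of promoters held a TATA box. The matches began 68 bases before the start in Trpm6 and 81 in Pvalb. No member's promoter held the estrogen-related receptor or steroid receptor letters, which stood in 1.28% and 0.00913% of promoters. No matches overlapped, and these letters are a description of the sequence, not a binding site.

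The values that chose the cells are given as a description. Distal convoluted cells held a median of 28 Slc12a3 UMIs and thick limb cells a median of 10 Slc12a1 UMIs, with medians of 5496 and 2535 UMIs per cell in all. No cell was tied, 8 of the 950 held a UMI of both transporters, and none held 2 of both. Only 4 Slc12a3 UMIs were counted in all thick limb cells and only 4 Slc12a1 UMIs in all distal convoluted cells. A further 38 cells met the transporter threshold but had a Ptprc UMI and were left out.

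Cells just inside the threshold looked less distal than the rest. With exactly 1 Slc12a3 UMI and no Slc12a1, 544 cells lay outside, and their Pvalb level was 4.83 CPM and their Egf level 13.4 CPM. The 68 cells with 2 or 3 Slc12a3 UMIs held Pvalb at 70.6 CPM and Egf at 110 CPM, and the 176 cells with 4 to 15 held them at 581 and 676 CPM. In the 607 cells with more than 15, they stood at 642 and 1690 CPM. At least 2 UMIs of the proximal tubule genes Lrp2 and Slc34a1 were present in 70.2% of the cells outside and 30.9% of those with 2 or 3. The share was 3.98% with 4 to 15 and 6.75% with more than 15. Median depths were 5058, 2557.5, 2563.5 and 7001 UMIs per cell in the same order. On the thick limb side, the 29 cells with 1 Slc12a1 UMI held Egf at 60.4 CPM and the 16 with 2 or 3 at 1743 CPM, so that the boundary was sharper there.

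**Figure D1:**
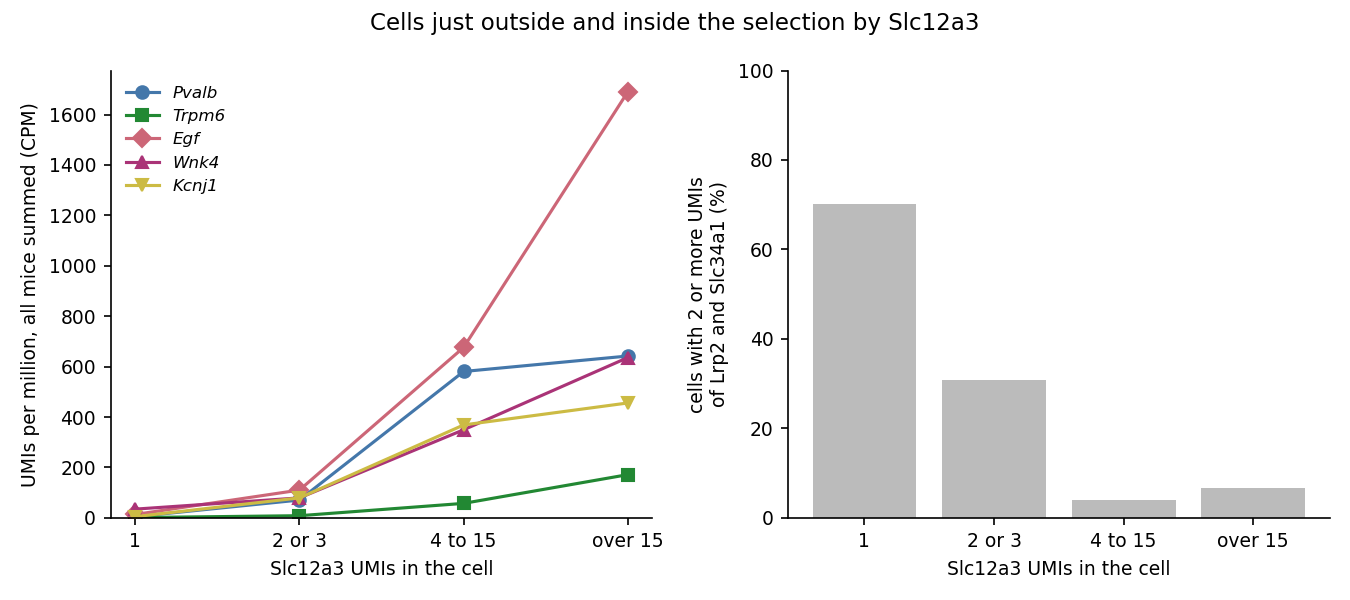
Left, CPM of 5 member genes (all mice summed, linear axis) in cells with 1, 2 or 3, 4 to 15 and over 15 Slc12a3 UMIs; right, the percentage of those cells with at least 2 UMIs of Lrp2 and Slc34a1. Cells with 1 Slc12a3 UMI lay outside the selection; the 68 cells with 2 or 3 stood between them and the cells with more in every gene shown.

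Markers that did not choose the cells followed the labels. Umod, the thick limb secretory protein uromodulin, ranged from 5997 to 19705 CPM in thick limb cells of the 5 mice, and Cldn16, a paracellular magnesium channel of the thick limb, from 261 to 671 CPM. Cldn16 had 1 UMI in all distal convoluted cells. Umod stood at 1738 to 4760 CPM in distal convoluted cells, so it was not absent there. Summed over 15 proximal tubule markers, distal convoluted cells held 645 and 2015 CPM in the saline mice and 4281, 1894 and 1373 CPM in the FMT mice. Thick limb cells held 380 to 783 CPM of the same sum. The 5 endothelial markers summed to 1.12 to 3.26 CPM in distal convoluted cells and 0 in thick limb cells. The 7 intercalated markers summed to 124 to 158 CPM in distal convoluted cells and 194 to 241 CPM in thick limb cells. Over the 5 mice, 4 neutrophil markers summed to 0 to 122 CPM in thick limb cells. In distal convoluted cells, 4 B cell markers summed to 4.55 to 77.3 CPM. All 15 proximal markers had UMIs in distal convoluted cells, and Acsm2 and Slc5a2 were at 0 in thick limb cells. 4 urothelial markers summed to 109 CPM in distal convoluted cells of the third FMT mouse and to at most 4.19 CPM in the others. Beyond leaving out cells with more proximal than distal transporter UMIs, the part of these sums in the results that follow was not tested.

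Between the segments, 7 of the 8 member genes that did not choose the cells differed in level, 6 of them higher in distal convoluted cells and 1, Egf, higher in thick limb cells. The comparison used UMIs summed per mouse and segment and the edgeR quasi-likelihood test with the mouse as a block, in which 269 of 5217 genes (5.16%) passed a Benjamini-Hochberg adjusted p of 0.05. Higher calls made up 3.39% and lower calls 1.76% of the genes tested. Trpm6, Calb1, Pvalb and Klhl3 had 1, 3, 0 and 0 UMIs in thick limb cells and passed the filter on low counts through their distal convoluted level. The count of 6 and the p-values of these genes therefore support nothing beyond each gene's own UMI counts.

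Slc12a3 and Slc12a1 chose the cells, so their levels are given without a test. Slc12a3 stood at 5179 and 5298 CPM in distal convoluted cells of the saline mice and at 5822, 4486 and 3677 CPM in those of the FMT mice. In thick limb cells it ranged from 0 to 15.2 CPM. Slc12a1 stood at 2002 and 5051 CPM in thick limb cells of the saline mice and at 4577, 4699 and 3495 CPM in those of the FMT mice, and from 0 to 3.03 CPM in distal convoluted cells. The lowest Slc12a1 level came from the first saline mouse, with 7 cells and 31 Slc12a1 UMIs.

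Kcnj1, the potassium channel that both segments carry, stood at close levels in both. It measured 371, 449, 440, 432 and 367 CPM in distal convoluted cells, in the order of the 2 saline and the 3 FMT mice. In thick limb cells it measured 194, 391, 361, 671 and 410 CPM in the same order. The means were 412 ± 39.5 and 406 ± 172 CPM (SD, n = 5), and the log2 difference of 0.23 ± 0.25 (SE) did not pass the edgeR test (adjusted p = 0.781). Distal convoluted cells were higher in 3 of 5 mice.

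Trpm6, the magnesium channel subunit, was counted in distal convoluted cells alone but for 1 UMI. Its levels were 228 and 137 CPM in the saline mice and 167, 97.3 and 108 CPM in the FMT mice. With 844 UMIs in distal convoluted and 1 in thick limb cells, the ratio of levels was 51.5 (95% counting interval 9.22 to 2037). The edgeR test passed (adjusted p = 5.41e-12), which Trpm6 entered through its distal convoluted level alone. The first saline mouse had the highest level and the second FMT mouse the lowest.

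Egf ran the other way. In distal convoluted cells it stood at 2081 and 1673 CPM in the saline mice and at 1357, 1073 and 772 CPM in the FMT mice. In thick limb cells it stood at 1550 and 6022 CPM and at 4241, 7720 and 3131 CPM. Thick limb cells were higher in 4 of 5 mice, and the first saline mouse, with 24 Egf UMIs in 7 thick limb cells, was the exception. The means were 1391 ± 510 and 4533 ± 2415 CPM (SD, n = 5), and the log2 difference was -1.45 ± 0.25 (SE, edgeR adjusted p = 2.59e-07).

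Between the segments, the 2 calcium-binding proteins were distal convoluted genes. Pvalb stood at 549 and 572 CPM in the saline mice and at 577, 837 and 551 CPM in the FMT mice, 3386 UMIs in all. No Pvalb UMI was counted in the 344443 UMIs of thick limb cells, which makes the distal convoluted level at least 68.9-fold higher, with the thick limb set at 3 counts over the group. The second FMT mouse was the highest, and the other 4 lay within 549 to 577 CPM.

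Calb1 varied more between mice than Pvalb did. It stood at 719 and 837 CPM in distal convoluted cells of the saline mice and at 908, 1579 and 499 CPM in those of the FMT mice. With 5004 UMIs against 3 in thick limb cells, the ratio of levels was 102 (95% counting interval 34.8 to 494). Both genes passed the edgeR test (adjusted p = 7.10e-38 for Pvalb and 1.98e-41 for Calb1), which they entered through their distal convoluted level alone.

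All 3 regulators of NCC measured higher in distal convoluted cells in every mouse, although some thick limb sums were too small to tell for Klhl3. Wnk1 stood at 3880, 3061, 2957, 2442 and 2981 CPM in distal convoluted cells, saline mice first, and at 323, 261, 1420, 1902 and 851 CPM in thick limb cells. Its lowest distal convoluted level lay above its highest thick limb level, and the log2 difference was 2.15 ± 0.26 (SE, edgeR adjusted p = 1.86e-14). Within a mouse, the difference of log2(CPM + 1) was 3.58 and 3.55 in the saline mice and 1.06, 0.36 and 1.81 in the FMT mice.

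Wnk4, a kinase that acts on NCC, stood at 708, 605, 591, 418 and 407 CPM in distal convoluted cells. In thick limb cells it stood at 0, 406, 293, 0 and 213 CPM, with no UMI in the 2 mice that gave 7 and 6 cells. The lowest distal convoluted level, 407 CPM, lay just above the highest thick limb level, 406 CPM. The log2 difference was 1.19 ± 0.26 (SE, edgeR adjusted p = 0.000255).

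Klhl3 stood at 99.0, 76.3, 88.1, 65.8 and 111 CPM in distal convoluted cells and had no UMI in thick limb cells. That makes its distal convoluted level at least 9.78-fold higher, with the same floor of 3 counts. The edgeR test passed (adjusted p = 4.41e-08), which Klhl3 entered through its distal convoluted level alone. The 481 Klhl3 UMIs of the distal convoluted cells were spread over all 5 mice, 46 to 164 each. Thick limb cells of the first saline and the second FMT mouse held 15484 and 8938 UMIs, too few to tell such a level from 0.

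**Figure D2:**
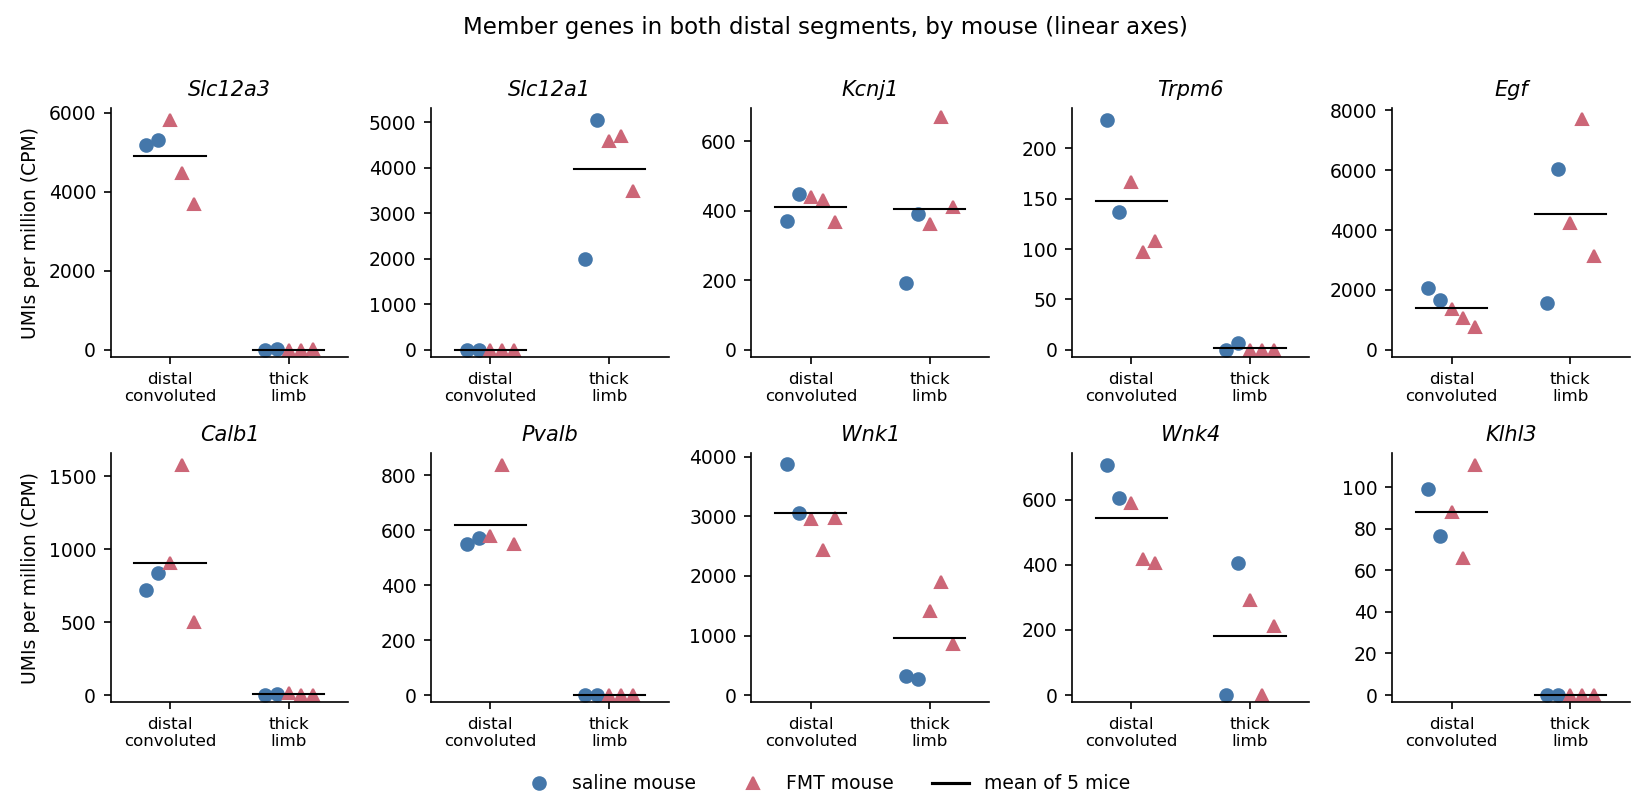
CPM of the 10 member genes (linear axes) in distal convoluted and thick limb cells of each mouse; circles are saline mice, triangles FMT mice, and the line is the mean of 5 mice. Kcnj1 overlaps between the segments, Egf is higher in 4 of 5 thick limb values, and Pvalb and Klhl3 are at 0 in all thick limb values.

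Related genes were taken from lists. Of 17 thick limb transport genes, 13 could be tested and 7 were lower in distal convoluted cells, none higher. The log2 difference was -5.43 ± 0.30 (SE) for Cldn10, a paracellular sodium channel, -2.85 ± 0.34 for Cldn19, the partner of Cldn16, and -1.69 ± 0.27 for Umod. The median of the 13 was -1.21 on the log2 scale, against 0.10 over all genes tested. Cldn10 had no UMI in the 6 thick limb cells of the second FMT mouse, where it alone went against the other 4.

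Of 21 magnesium genes outside the members, 11 were tested and 1, the channel kinase Trpm7, passed. Trpm7 stood at 431 ± 75.4 CPM in distal convoluted and 38.8 ± 37.5 CPM in thick limb cells (SD, n = 5), a log2 difference of 2.89 ± 0.34 (SE). Fxyd2, a sodium pump subunit tied to magnesium loss, was at 17102 ± 1596 and 11825 ± 3799 CPM (SD, n = 5), higher in 5 of 5 mice, and did not pass (edgeR adjusted p = 0.079). The 4 sodium pump genes held no call.

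Of 23 other regulators of WNK kinases and salt transport, 12 were tested. Stk39, which encodes SPAK, was higher in distal convoluted cells (log2 1.25 ± 0.38 SE, edgeR adjusted p = 0.0217), and the glucocorticoid receptor gene Nr3c1 was lower (-1.48 ± 0.41, adjusted p = 0.00912). Cul3, the cullin partner of Klhl3, measured 84.6 ± 17.5 and 120 ± 95.6 CPM and did not pass (adjusted p = 0.62). Of 15 genes of calcium handling and the late distal tubule, 9 were tested, 3 were higher and 3 lower. S100g, a small vitamin D-dependent calcium-binding protein, had a log2 difference of 4.91 ± 0.34 (SE). Pth1r, the parathyroid hormone receptor, stood at -2.43 ± 0.25 and the kallikrein gene Klk1 at -1.76 ± 0.27.

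Outside the distal segments, 4 further classes with cells in every mouse were set by marker UMIs: 745 intercalated cells (Atp6v1g3), 10748 proximal tubule cells (Lrp2 and Slc34a1), 5839 leukocytes (Ptprc) and 74 endothelial cells. A cell without Ptprc and with 2 or more UMIs of Slc12a3 or Slc12a1 was placed in the segments, so the other classes without Ptprc could hold at most 1 UMI of each per cell, while leukocytes had no such limit. The levels of these 2 genes in the other classes without Ptprc were therefore bounded by the selection, and no levels of them are compared between classes. Slc12a3 averaged 42.1 ± 47.4 CPM in leukocytes, 23.2 ± 32.3 in endothelial cells, 17.9 ± 10.4 in intercalated cells and 5.57 ± 4.24 in proximal cells (SD, n = 5). The leukocyte value was 126 CPM in the second saline mouse and 14.8 to 33.5 CPM in the others, and that mouse also had the highest share of chosen cells.

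Slc12a1 averaged 1.38 CPM in leukocytes, which had no such bound, and 0.282 CPM in proximal cells, which did. Kcnj1, which the rule did not use, averaged at most 4.42 CPM in the 4 classes, Trpm6 at most 5.34 CPM and Pvalb at most 6.82 CPM. Egf averaged 14.8 ± 12.8 CPM in leukocytes and 2.62 ± 3.89 CPM in intercalated cells. Klhl3 averaged 6.59 ± 5.08 CPM in intercalated and 4.62 ± 1.02 CPM in proximal cells, which did not differ beyond their spread.

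The kinases reached further. Wnk1 averaged 388 ± 37.4 CPM in intercalated cells, 153 ± 59.9 in endothelial cells, 126 ± 24.1 in leukocytes and 45.0 ± 8.54 in proximal cells (SD, n = 5), and endothelial cells and leukocytes did not differ beyond their spread. With 951 ± 708 CPM, the thick limb came second to the distal convoluted cells, and its range of 261 to 1902 CPM took in the intercalated level. Wnk4 averaged 80.5 ± 27.4 CPM in intercalated cells, 30.1 ± 2.08 in proximal cells and 10.1 ± 8.25 in leukocytes, and had no UMI in 74 endothelial cells. In proximal cells Wnk4 kept to 27.1 to 32.8 CPM in all 5 mice. Only 5 cells from 3 mice met the rule for principal cells of the collecting duct. Calb1 averaged 634 ± 363 CPM in them (19 UMIs) and Kcnj1 516 ± 514 CPM (6 UMIs, SD, n = 3), with no Kcnj1 UMI in the saline mouse.

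**Figure D3:**
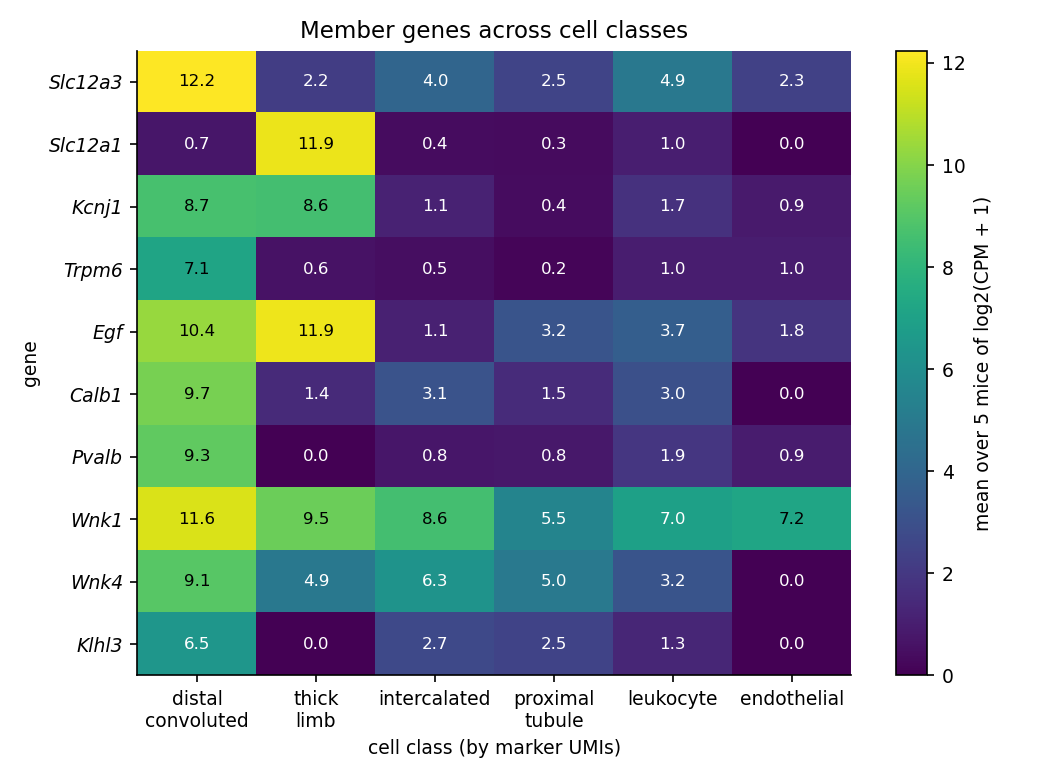
Mean over 5 mice of log2(CPM + 1) for the 10 member genes (rows) in 6 cell classes set by marker UMIs (columns), with the value printed in each field. Wnk1 is above 5 in all 6 classes, whereas Pvalb and Trpm6 are above 2 only in distal convoluted cells.

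At an equal depth of 1000 UMIs per cell, the share of cells with a UMI was higher on average in distal convoluted cells for the 7 members below other than Egf. Thinning used 810 distal convoluted and 78 thick limb cells, left out 41 and 21 shallower ones, and took up to 400 cells per mouse of the other classes. Pvalb was present in 32.1 ± 4.37% of distal convoluted cells (SD, n = 5 mice) and in none of the 78 thick limb cells, against 0.35% of leukocytes. Calb1 was present in 26.1 ± 4.04% and 0.714 ± 1.60%, against 0.35% of leukocytes, and Trpm6 in 14.7 ± 5.87% and 0, against 0.05%. These shares depend on depth. At 2000 UMIs, Pvalb was present in 46.3%, Calb1 in 33.3%, Trpm6 in 26.3% and Klhl3 in 18.1% of distal convoluted cells, and without thinning in 55.1%, 45.1%, 48.005% and 33.7%, so that no order between genes is read from them.

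Egf was present in 57.7 ± 10.6% of distal convoluted and 80.9 ± 31.4% of thick limb cells at that depth, against 0.55% of leukocytes and 1% of proximal cells. Wnk1 was present in 86.4 ± 4.20% and 56.1 ± 30.7%, against 12.2% of leukocytes, and in the second FMT mouse in 80.7% and in both of the 2 thick limb cells. Wnk4 was present in 41.98 ± 10.02% and 18.4 ± 16.8%, Kcnj1 in 33.0 ± 4.38% and 19.6 ± 18.2%, and Klhl3 in 9.37 ± 1.71% and 0. Kcnj1 was present in fewer distal convoluted than thick limb cells in the first FMT mouse (30.4% and 32.1%) and the third (31.1% and 37.5%). Of the thick limb cells, 4 of the first saline mouse and 2 of the second FMT mouse were deep enough to be thinned.

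The class sums were formed by the thresholds on Slc12a3 and Slc12a1, and the genes compared were chosen for their level in that segment, so genes found mainly there come out alike by construction. As a description over 28 sums of class and mouse, the gene whose log2 CPM was most like that of Slc12a3 was Pvalb (Pearson r = 0.926), among 3085 genes of at least 50 CPM in distal convoluted cells. Ltc4s (0.895), Figf (0.892), Lrrc52 (0.892) and Calb1 (0.891) followed. Of the other members, Klhl3 ranked 11, Trpm6 15, Wnk1 21, Kcnj1 31, Egf 69 and Wnk4 119. For Slc12a1, among 3061 genes, Cldn16 (0.981), Tmem207 (0.955), Nccrp1 (0.953), Defb42 (0.948) and Irx1 (0.929) came first, Egf ranked 36 and Kcnj1 77. The sums share mice and libraries, and the classes are few. Only sums of at least 10 cells were used. The thick limb cells of the first saline mouse (7) and the second FMT mouse (6) were therefore left out.

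Distal convoluted cells were not alike in Calb1 and Pvalb. After thinning to 2000 UMIs, 718 cells remained, of which 120 held both genes, 129 Calb1 alone, 202 Pvalb alone and 267 neither. Calb1 was present in 37.3% of cells with Pvalb and in 32.6% of those without. In the second FMT mouse the order was the other way, 21.3% and 41.8%. The 5 mice did not share one direction: Calb1 was more frequent with Pvalb in 3 of them.

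To see what else varied along these genes, cells with at least 2 thinned Calb1 UMIs were compared with cells with none, with the mouse as a block. This comparison, and the same one for Pvalb, were added after the data had been seen. Calb1-high cells numbered 164 (12 to 52 per mouse) and Calb1-free cells 469. Of 5670 genes, 199 passed the edgeR test (3.51%), 80 higher (1.41%) and 119 lower (2.1%). Among the 7 members tested, 3 were higher and 1 lower.

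Egf fell with Calb1. It stood at 1369, 1159, 792, 537 and 410 CPM in Calb1-high cells and at 2227, 1882, 1517, 1302 and 878 CPM in Calb1-free cells of the same mice, saline first. All 5 mice had less Egf in Calb1-high cells, by a log2 difference of -0.89 ± 0.10 (SE, edgeR adjusted p = 2.58e-08). Klhl3 was higher in Calb1-high cells in 5 of 5 mice (log2 1.02 ± 0.20, adjusted p = 0.000589), with 355 against 67.4 CPM in the third FMT mouse and 72.4 against 68.6 CPM in the second. Without the third FMT mouse, which gave 12 Calb1-high cells, the Klhl3 difference was 0.75 (adjusted p = 0.0259).

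Pvalb was higher in Calb1-high cells by 0.62 ± 0.12 (SE, edgeR adjusted p = 0.000898), in 4 of 5 mice. The exception was the second FMT mouse, with 724 against 888 CPM. Wnk1 differed by 0.34 ± 0.10 (adjusted p = 0.042), higher in 5 of 5 mice, and this call was lost in 9 of 12 alternatives, among them without either saline mouse and without the first or the second FMT mouse. Wnk4 (-0.21 ± 0.11), Kcnj1 (0.15 ± 0.10) and Trpm6 (0.11 ± 0.14) did not pass. The calls of Egf, Klhl3 and Pvalb held in 11 of 12 alternatives and were lost where the mouse was left out of the fit.

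Genes of the late distal tubule moved with Calb1: of 9 tested, 5 were higher and 1 lower. S100g was higher by 4.80 ± 0.37 on the log2 scale, Klk1 by 2.13 ± 0.20 and Pth1r by 0.83 ± 0.15 (SE). S100g reached 8542 to 27187 CPM in Calb1-high cells of 4 mice but 1009 CPM in the third FMT mouse. Of 11 thick limb genes tested, 3 were lower in Calb1-high cells: Cldn19 (-2.47 ± 0.41), the prostaglandin E receptor gene Ptger3 (-1.51 ± 0.21) and Umod (-0.56 ± 0.11). The summed proximal tubule markers were also lower in Calb1-high cells in every mouse, 133 to 1273 CPM against 832 to 5830 CPM, and their part in these differences was not tested beyond leaving out cells rich in proximal transporters. Without those cells Egf differed by -0.997, Klhl3 by 0.92 and Pvalb by 0.51, all still called.

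Along Pvalb, none of the 7 members tested passed, while 217 of 4901 genes did (4.43%; 0.918% higher and 3.51% lower). Trpm6 was 0.43 ± 0.15 higher in Pvalb-high cells (edgeR adjusted p = 0.107), in 4 of 5 mice. Calb1 differed by -0.44 ± 0.27 (adjusted p = 0.487), with 282 against 2902 CPM in the second FMT mouse and 497 against 87.8 CPM in the third. It passed without the low count filter (adjusted p = 0.000629) and without the third FMT mouse, at -0.79 (adjusted p = 8.77e-07). Trpm6 also passed without the third FMT mouse (0.52, adjusted p = 0.014), and without the second FMT mouse Calb1 stood at 0.14. S100g (-3.80 ± 0.44) and Klk1 (-2.39 ± 0.17) were lower in Pvalb-high cells, and Umod (0.54 ± 0.11) and Pcbd1 (0.53 ± 0.09) were higher. The Umod call was lost with DESeq2, above 15 Slc12a3 UMIs and without the mouse block. Summed proximal markers were again lower in the high cells, 158 to 982 CPM against 1054 to 7597 CPM. S100g and Klk1 had opposite signs along Calb1 and Pvalb, although Pvalb itself was higher in Calb1-high cells. These 2 comparisons share cells and are set side by side without a test.

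**Figure D4:**
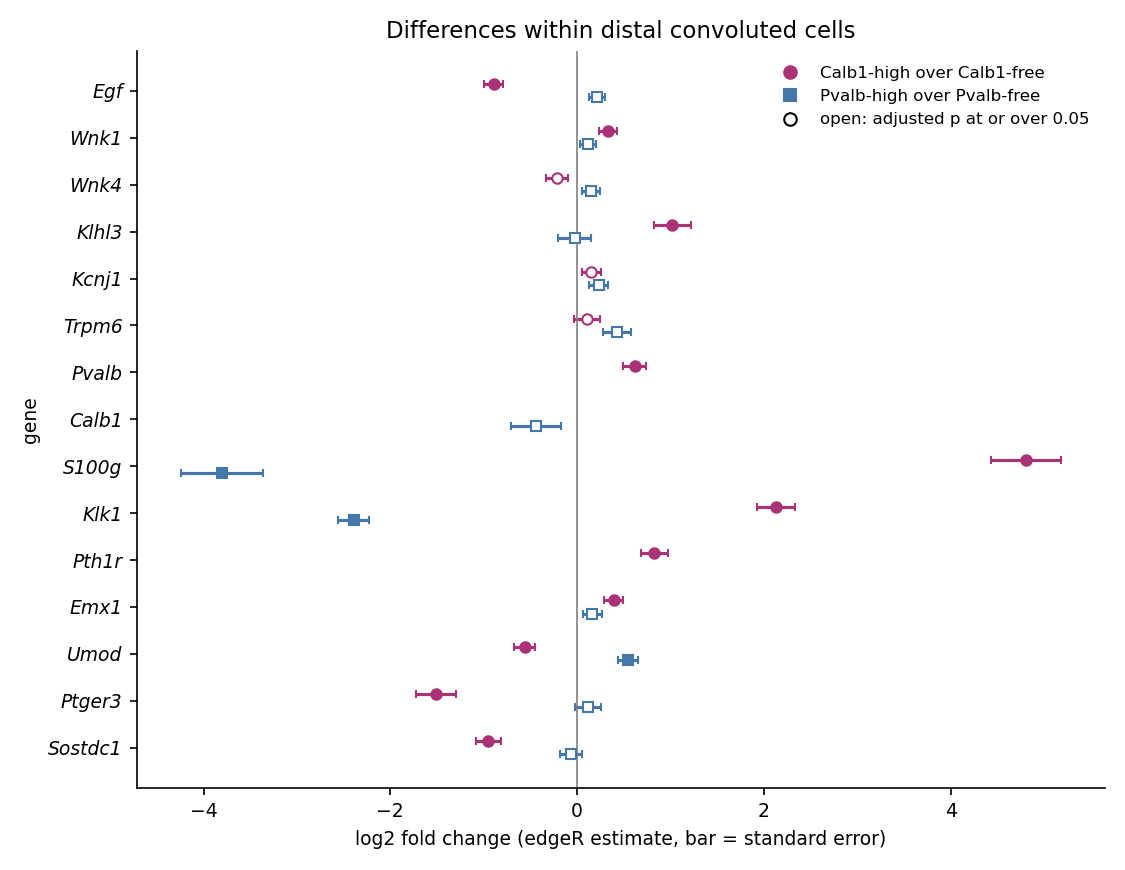
Log2 fold changes with standard errors (edgeR, 5 mice) between distal convoluted cells high in and free of Calb1 (circles) and Pvalb (squares); filled points have an adjusted p under 0.05. S100g and Klk1 lie far right for Calb1 and far left for Pvalb, and Egf stands at -0.89 for Calb1 and 0.22 for Pvalb.

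Between the treatments, no member gene passed the test in either segment. In distal convoluted cells 4 of 8390 genes passed (0.0477%; 0.0238% higher and 0.0238% lower): Acot1 and Angptl4 were higher and Hbb-bt and Pde10a lower after FMT. Pde10a was below the level set for naming genes and is named after its values were seen. Of the 8 members tested, 4 leaned each way, with a median of -0.13 on the log2 scale against 0.01 over all genes, and 364 genes had an unadjusted p under 0.05.

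Egf had the largest difference of any member tested in distal convoluted cells. Its levels of 2081 and 1673 CPM in the saline mice and 1357, 1073 and 772 CPM in the FMT mice did not overlap. The log2 difference was -0.79 ± 0.23 (SE, edgeR adjusted p = 0.611). Without the filter on low counts it passed (adjusted p = 0.00631), and the other 14 alternatives left it uncalled, at -1.01 to -0.59. Umod, better known from the thick limb, stood at 4228 ± 753 (SD, n = 2) and 2140 ± 352 CPM (SD, n = 3), a difference of -0.95 ± 0.20 (SE, adjusted p = 0.13). The summed proximal markers were higher in FMT 1 and lower in the first saline mouse than in the rest. Their part in the Egf values was not tested beyond leaving out cells rich in proximal transporters, which was among the alternatives above.

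Wnk4 and Wnk1 also had groups that did not overlap in distal convoluted cells, which makes 3 of 8 members, against 18.2% of the 8390 genes tested. None of the 3 passed the test. Wnk4 stood at 708 and 605 CPM against 591, 418 and 407 CPM, a log2 difference of -0.45 ± 0.21 (SE, edgeR adjusted p = 1.00). Wnk1 stood at 3880 and 3061 CPM against 2957, 2442 and 2981 CPM, a difference of -0.29 ± 0.20 (adjusted p = 1.00). The other members overlapped: Trpm6 differed by -0.50 ± 0.27, Calb1 by 0.38 ± 0.33, Pvalb by 0.25 ± 0.21, Klhl3 by 0.05 ± 0.24 and Kcnj1 by 0.04 ± 0.18. Slc12a3, which chose the cells, averaged 5239 ± 84.3 (SD, n = 2) and 4662 ± 1083 CPM (SD, n = 3) and was not tested there.

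In thick limb cells 4 members could be tested, and Wnk1 was the one whose groups did not overlap, against 17.8% of the 1223 genes tested. It stood at 323 and 261 CPM in the saline mice and at 1420, 1902 and 851 CPM in the FMT mice, from 5 and 36 UMIs and from 165, 17 and 56 UMIs. All 3 FMT mice lay above both saline mice, by a log2 difference of 2.13 ± 0.41 (SE), which did not pass the edgeR test (adjusted p = 0.082). In this comparison 0 of 1223 genes passed (0%), 31 had an unadjusted p under 0.05, and DESeq2 called 0 as well. Wnk1 passed in 4 of 15 alternatives, among them without the third FMT mouse (adjusted p = 0.0259), and its estimates spanned 1.94 to 2.45.

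In the same thick limb sums, Slc12a3 stood at 0 and 14.5 CPM in the saline mice. It stood at 8.60, 0 and 15.2 CPM in the FMT mice. The rule kept Slc12a3 below Slc12a1 in each of these cells. Its level therefore cannot show how much distal convoluted RNA the sums held. The median depth of the thick limb cells was 1100 and 4440 UMIs against 2728, 792 and 1550, and the median mitochondrial share 1.10% and 3.55% against 4.75%, 1.83% and 6.36%. Their part in the Wnk1 values was not tested. Egf (0.11 ± 0.52), Kcnj1 (0.23 ± 0.43) and Wnk4 (-0.47 ± 0.61) overlapped between the groups. Trpm6, Calb1, Pvalb and Klhl3 had too few thick limb UMIs to be tested.

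The FMT difference of Wnk1 in distal convoluted cells minus that in thick limb cells was -2.38 ± 0.62 on the log2 scale (SE). The test of that difference did not pass (edgeR adjusted p = 0.455), where 0 of 6852 genes passed (0%) and 184 had an unadjusted p under 0.05, and DESeq2 called 0. It passed in 5 of 14 alternatives, including without the second FMT mouse (adjusted p = 0.000389), while the estimate kept its sign at -2.86 to -2.07. Egf differed between the segments by -1.29 ± 0.59 (adjusted p = 1.00).

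With both segments summed, 3 of 8439 genes (0.0355%; 0.0118% higher and 0.0237% lower) passed, Acot1, Hbb-bt and Pde10a, and none was a member. Egf differed by -0.66 ± 0.21 (adjusted p = 0.793) and Wnk4 by -0.47 ± 0.20, and neither overlapped between the groups. With Wnk1 this makes 3 of 8 members, against 19.2% of the genes tested. These sums also move with the mix of segments, in which distal convoluted cells made up 95.04% and 90.3% of the chosen cells in the saline mice and 87.8%, 95.3% and 79.9% in the FMT mice.

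To test the cotransporters themselves, 855 distal cells were chosen by 8 other distal genes, and 751 of them (87.8%) were among the 950. They comprised 662 distal convoluted, 89 thick limb and 104 cells outside the rule, so levels in them also move with the mix of segments. In these cells 0 of 9153 genes passed (0%), 237 had an unadjusted p under 0.05 and DESeq2 called 0. Slc12a3 averaged 4152 ± 910 CPM (SD, n = 2) and 3426 ± 1313 CPM (SD, n = 3), a log2 difference of -0.26 ± 0.37 (SE, edgeR adjusted p = 1.00). Slc12a1 averaged 202 ± 241 and 247 ± 186 CPM, a difference of 0.30 ± 0.88 (adjusted p = 1.00). Egf differed by -0.66 ± 0.35 here and its groups overlapped.

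**Figure D5:**
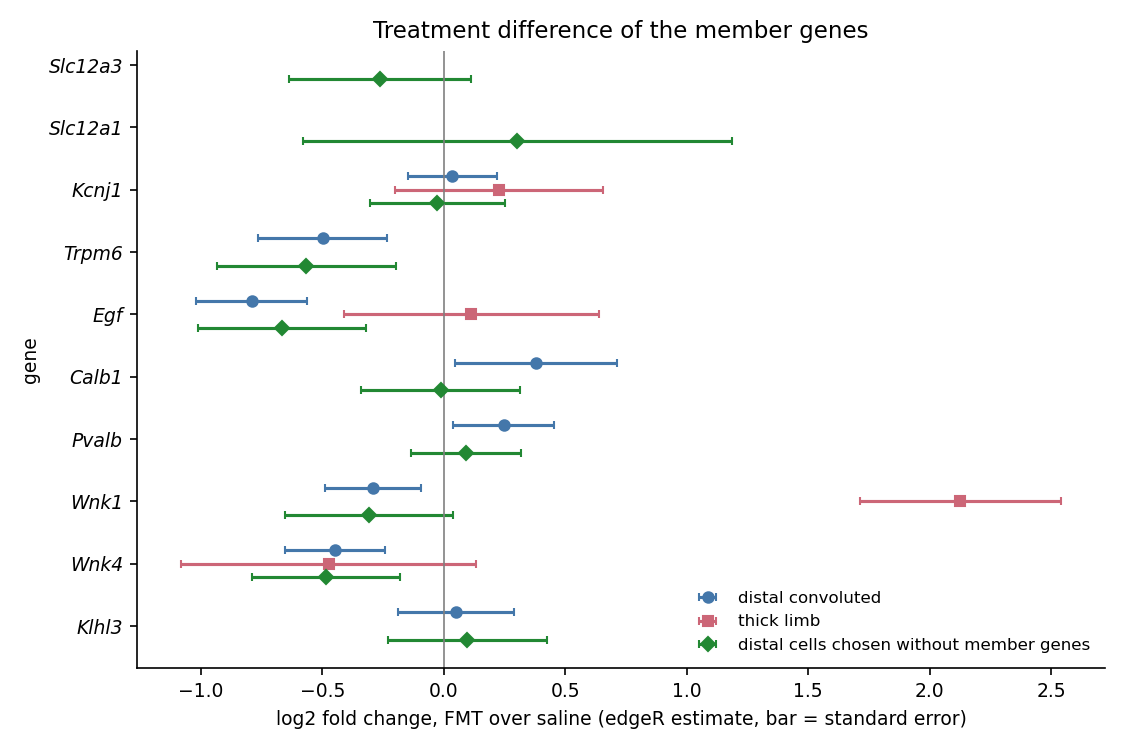
Log2 fold changes of FMT over saline with standard errors (edgeR, 2 against 3 mice) for the member genes in distal convoluted cells (circles), thick limb cells (squares) and distal cells chosen without the members (diamonds); genes without a point were not tested there. No point passed the adjusted threshold, and Wnk1 in thick limb cells, at 2.13, lies farthest from 0.

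The share of chosen cells among those without Ptprc was 4.41% and 13.2% in the saline mice and 5.45%, 3.57% and 5.87% in the FMT mice. The exact (Clopper-Pearson) 95% intervals were 3.73 to 5.18% and 11.9 to 14.7% for the saline mice, covering counting error only. The difference of -3.86 percentage points rested on the second saline mouse and became 0.55 without it, and an exact two-sided permutation test gave p = 0.4, where 2 against 3 mice cannot go below 0.1. The share of distal convoluted among chosen cells differed by -5.02 percentage points (exact permutation p = 0.5). Adjusted over both shares by the Benjamini-Hochberg method, both p-values were 0.5.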

How the data were processed

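Single-cell RNA libraries from kidneys of 2 saline and 3 FMT mice were analysed. The deposited values are counts of UMIs per gene and barcode, made by the authors with Cell Ranger 2.1.1 on mm10, per the submitters' processing notes. The matrix headers name version 4.0.0. The labels also name kits for total RNA and mRNA, and their sample codes differ between the groups, so a batch cannot be told apart from the treatment.

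A barcode stayed in if it had 200 or more genes and a mitochondrial share below 50%. Scrublet (scanpy 1.11.5) ranked doublets, and the top 0.8% per 1000 cells (883 cells) were removed. UMIs were summed per mouse and segment over at least 5 cells and tested with edgeR 4.0.16 in R 4.3.3 (quasi-likelihood test, TMM scaling, low count filter, Benjamini-Hochberg adjusted p of 0.05), with the mouse as a block where 2 kinds of cells were compared within mice. DESeq2 1.42.0, other filters, other cell selections and leaving out each mouse were alternatives. The comparisons by Calb1 and Pvalb, the fits on total UMIs without TMM, and the splits without proximal-rich cells or above 15 Slc12a3 UMIs were chosen after seeing the data. Members and lists were chosen with earlier results of these data known. Named genes were the members, the 4 most abundant and up to 4 called genes of each list, the 5 genes most alike to each transporter, and up to 5 called genes per direction of at least 30 CPM in each treatment comparison. The fits, except those along Pvalb and for the difference between segments, were also run on simulated data. The outcome of those runs is not reported here. Intervals cover counting error only. Results on some genes and motifs are not reported here.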

Additional observations from a re-analysis of the deposited data

Results flagged for a closer look

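The difference of Pvalb between distal convoluted and thick limb cells, on the log2(CPM + 1) scale, was 9.71 in the second FMT mouse and 9.10, 9.16, 9.17 and 9.11 in the other 4 mice. The gap to the nearest of the others made up 0.882 of the whole range, which stands apart by Dixon's criterion for 5 samples. The check was run on the 8 members that did not choose the cells, and only Pvalb was flagged. Chance flags about 1 in 20 such groups. Pvalb had no thick limb UMI in any mouse, so the value is set by its distal convoluted level, 837 CPM in that mouse.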

How the results depend on the processing

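The 7 member calls between the segments held under all 15 alternatives run, while 12 of 84 values of members along Calb1 lost their call. Among these 7, Trpm6, Calb1, Pvalb and Klhl3 had 1, 3, 0 and 0 thick limb UMIs. Those counts fixed that their calls would hold, which adds no support. Calls were gained in 1 value in distal convoluted cells, 4 in thick limb cells, 5 for the difference between segments and 3 along Pvalb. Uncalled members changed sign in 6 values in distal convoluted cells, 12 in thick limb cells, 9 in both segments, 9 in cells chosen without members, 11 for the difference between segments, 1 along Calb1 and 7 along Pvalb. Of 40 shares of cells with a UMI at another thinning depth or none, 21 moved by more than 1 SD. Counts of all genes moved more. Without the low count filter, calls numbered 508 between the segments (269 as reported), 120 in distal convoluted cells (4), 4 in thick limb cells (0), 128 in both segments (3), 56 in cells chosen without members (0), 420 along Calb1 (199) and 463 along Pvalb (217). With DESeq2 they numbered 5 in both segments, 76 along Calb1 and 97 along Pvalb. On total UMIs without TMM there was 1 in distal convoluted cells, 3 in thick limb cells and 1 for the difference between segments. The segment calls were then 178 higher and 163 lower, against 177 and 92, and 149 and 148 with sums of at least 20 cells. The median log2 difference of all genes between segments was 0.10, and 0.46 without the filter. With doublets kept, and with every deposited barcode, calls numbered 19 in distal convoluted cells, 19 in both segments and 3 for the difference between segments. At a threshold of 3 UMIs they numbered 9 and 10 in the first 2 of these. Leaving out cells rich in proximal transporters gave 19, 21, 99 along Calb1 and 63 along Pvalb. Above 15 Slc12a3 UMIs there were 92 along Calb1 and 42 along Pvalb. Sums of at least 20 cells gave 9 in thick limb cells and 4 for the difference between segments.

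Leaving out 1 mouse at a time gave 171 (without FMT 1) to 328 calls between segments, with 175 without saline 2. It gave 1 (without saline 2) to 18 (without FMT 2) in distal convoluted cells, 0 to 6 in thick limb cells, 0 to 21 in both segments, 0 to 8 in cells chosen without members, 0 to 2 for the difference between segments, 94 to 241 along Calb1 and 123 to 237 along Pvalb. The low ends of the last 2 came without FMT 1. The share of chosen cells differed by -8.28 to 0.55 percentage points and that of distal convoluted cells by -8.86 to -1.11. A group left with 1 mouse is assumed to vary like the other.

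The labels number replicates 1 and 2 in both groups, but nothing says that the numbers pair mice, and same-numbered mice had deviations that correlated at -0.2114 and -0.0202 in distal convoluted cells. With the replicate block, calls numbered 24 in distal convoluted cells, 5 in thick limb cells and 6 in both segments. Wnk1 then passed in thick limb cells (adjusted p = 0.00166 by edgeR). The third FMT mouse has no saline mouse of its number and adds nothing to the treatment difference in these fits. They therefore rest on 2 saline and 2 FMT mice. The comparisons within mice had the mouse, not the replicate number, as a block. Without that mouse block they gave 45 calls along Calb1 and 53 along Pvalb. Thick limb values are limited by 6 and 7 cells in 2 mice.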
